A study of Arabidopsis thaliana with 4 samples.

Results

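Gene expression in the ku80 mutant of Arabidopsis thaliana was set against that of wild type, both grown with bleomycin, on 1 array per genotype. These are 2 of the 4 arrays of the series, chosen by their titles. The mutant plants were of accession ws-2 with a T-DNA insertion in KU80 (At1g48050) and had bleomycin at 1 mg per litre for 3 days, and the wild type ws-2 plants had the same treatment. The other 2 arrays held untreated ku80 and untreated wild type plants, for which the labels give no treatment. They serve below only in the scaling and as a further point of comparison. RNA of 20 whole plants at growth stage 1.06 was pooled for every array, and the plants were grown on MS medium at 23 °C with 16 hours of light. A pool averages over plants but gives no spread between pools, so with 1 array per group no difference has a replicate check or a p-value, and values are given as differences between these 2 arrays.

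Ku80 and its partner Ku70 form a ring that binds the broken ends of DNA and starts their repair by non-homologous end joining. Bleomycin is a drug that breaks DNA strands, and Arabidopsis ku80 mutants are known to be sensitive to such agents. Plants also answer handling, wounding, calcium signals and microbes with a fast and short-lived burst of transcripts for transcription factors, calcium sensors and ubiquitin ligases, here called early stress genes.

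The ATH1 array carries short probes grouped into probe sets, and its values are linear intensities. Each array was divided by a scaling factor (0.976 to 1.04), values under 28 were raised to that floor, and differences are log2 of ku80 over wild type. Where 1 array was at the floor, the fold is only a bound and is written as "at least". Of 22746 probe sets, 14397 exceeded the floor on at least 1 of the 2 arrays and count as measured, and 12685 exceeded it on both. The brighter of the 2 arrays lay within 10% above the floor in 537 probe sets and within 10% below it in 606. RCA, which encodes the Rubisco activase of leaves, measured 1697 in ku80 and 1995 in wild type with bleomycin. Of the 3 measured root genes, PYK10, which encodes a root beta-glucosidase, measured 2196 in ku80 and 2490 in wild type with bleomycin, while EXPA7 (12.5 and 32.1) and AT4G26010 (15.2 and 49.8) were under the floor in ku80 and dim in wild type on the same 2 arrays. KU80 itself had no probe set in the annotation, so its transcript gives no check of the mutant label.

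Between the genotypes, 80.5% of measured probe sets differed by less than 1.5-fold. At least 2-fold higher in ku80 were 283 probe sets (1.97% of those measured), and at least 2-fold lower were 361 (2.51%). Higher ones were thus 43.9% of the 2-fold probe sets, but 57.3% when the deposited values were used without scaling factors. About 54.3% of measured probe sets were paired with a single gene. Over these 7746 named genes, 117 (1.51%) were at least 2-fold higher in ku80 and 183 (2.36%) at least 2-fold lower. In the 52 genes with several probe sets brighter than the floor in both genotypes, their log2 differences lay a median of 0.30 apart and at most 1.13 apart.

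**Figure D1:**
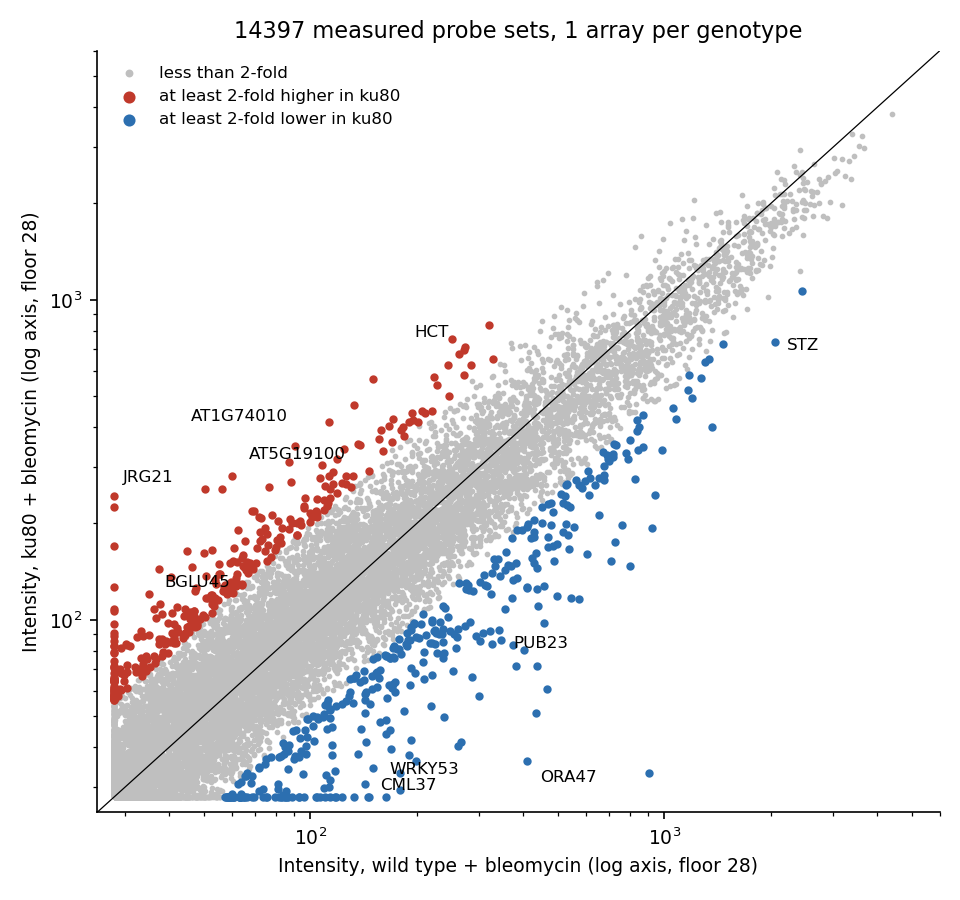
Intensity of each measured probe set in ku80 with bleomycin (vertical, log axis) against wild type with bleomycin (horizontal, log axis), values under 28 drawn at 28, with the line of equal intensity. The 283 red points are at least 2-fold higher in ku80 and the 361 blue points at least 2-fold lower, with ORA47 far below the line and JRG21 at the wild type floor.

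The 3 genes furthest below wild type in ku80, with both arrays above the floor, were early stress genes. ORA47 encodes an AP2/ERF transcription factor linked to jasmonate synthesis, and it had an intensity of 36.1 in ku80 and 410 in wild type with bleomycin, and of 126 in ku80 and 549 in wild type without it. It was 11.4-fold lower in ku80 with the drug (log2 -3.51), and both ku80 arrays lay below both wild type arrays. AT3G01830 measured 51.0 in ku80 and 435 in wild type with bleomycin, and 175 in ku80 and 191 in wild type without it, a log2 difference of -3.09 with the drug. For AT3G01830 the ku80 array with bleomycin was the lowest of the 4 and the wild type array with bleomycin the highest. AT1G19210 measured 40.3 in ku80 and 262 in wild type with bleomycin, and 86.7 in ku80 and 220 in wild type without it. Its log2 difference was -2.70 with the drug and -1.34 without.

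WRKY53, a transcription factor gene known from leaf senescence and defence, measured 34.4 in ku80 and 150 in wild type with bleomycin, against 233 in ku80 and 165 in wild type without it. Its log2 difference with the drug was -2.13, and the ku80 array with bleomycin stood alone below the other 3. Of 6 measured WRKY genes, 1 (WRKY53) was at least 2-fold lower and none at least 2-fold higher. Over all measured named genes 2.36% were at least 2-fold lower. The WRKY median was 0.06, with 3 genes above 0 and 3 below. STZ (also ZAT10) encodes a zinc finger repressor active in salt, cold and drought stress. STZ measured 740 in ku80 and 2051 in wild type with bleomycin, and 1561 in ku80 and 1337 in wild type without it, which made it 2.77-fold lower in ku80 with the drug. The ku80 array with bleomycin was again the lowest of the 4.

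Plant U-box (PUB) genes encode ubiquitin ligases, and PUB22, PUB23 and PUB24 are known to dampen immune signalling. PUB23 measured 86.6 in ku80 and 346 in wild type with bleomycin, and 475 in ku80 and 494 in wild type without it, 3.99-fold lower with the drug. PUB22 measured 92.3 in ku80 and 322 in wild type with bleomycin, and 248 in ku80 and 232 in wild type without it, 3.49-fold lower with the drug. In both genes the untreated genotypes differed by no more than 0.10 on the log2 scale. PUB19, which is known from drought and abscisic acid responses, was at the floor in ku80 with bleomycin (18.8) and at 92.7 in wild type with bleomycin, and 116 in ku80 and 112 in wild type without it, at least 3.31-fold lower. The family was gathered by gene symbol, so members named only by locus are not counted. Of 6 measured PUB genes, 3 were at least 2-fold lower in ku80 and none at least 2-fold higher, against 2.36% and 1.51% of all measured named genes. The family's median log2 difference was -1.24. The family was chosen after the values were seen, and PUB22, PUB23 and PUB24 are also in the early stress list below. PUB24 and PUB49 were at -0.75 and -0.57, and PUB43 was at 0.76. PUB22 and PUB23 are close copies, so probes may bind both transcripts.

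Calmodulin-like (CML) genes encode calcium sensors. CML37 was under the floor in ku80 with bleomycin (21.1) and at 145 in wild type with bleomycin, and 91.8 in ku80 and 106 in wild type without it, at least 5.20-fold lower with the drug. CML38 measured 278 in ku80 and 617 in wild type with bleomycin, and 676 in ku80 and 525 in wild type without it, a log2 difference of -1.15. CML42, at 111 in ku80 and 238 in wild type with bleomycin, differed by -1.10. In each of these 3 genes the ku80 array with bleomycin was the lowest of the 4. With the median of their gene length class subtracted (the gene length results are given further on), CML38 was at -0.92 and CML42 at -0.86, both under 2-fold, and CML37 at -2.15. The other 4 measured genes with a CML symbol were under 2-fold, CML23 at -0.48, CML41 at -0.30, CML43 at 0.31 and CML30 at 0.47. Family members named only by locus are not counted here. Over all measured named genes 2.36% were at least 2-fold lower. The family was chosen after the values were seen, and CML23, CML37, CML38 and CML41 are also in the early stress list below.

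As a list, early stress genes held 61 genes, of which 15 were named on the array and 14 measured. All 14 had a log2 difference below 0, and 9 of the 14 were at least 2-fold lower in ku80, against 2.36% of all measured named genes. The list was chosen with earlier results of these data known, so its counts describe only. Its genes are short (median 1381 bases), and in the 2 shortest 10ths of genes 8.03% and 6.09% were at least 2-fold lower. The list's median was -1.64, against -0.05 over all measured named genes. The 5 members under 2-fold were WRKY22 (-0.76), PUB24 (-0.75), CML23 (-0.48), EXO (-0.39) and CML41 (-0.30). In 10 of the 14 genes the ku80 array with bleomycin was the lowest of the 4, against 1850 of the 7746 measured named genes. In 9 of the 14 the wild type array with bleomycin was the highest of the 4, which was not counted over all genes. Without the drug only ORA47 and AT1G19210 of the 14 differed by at least 2-fold between the genotypes.

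**Figure D2:**
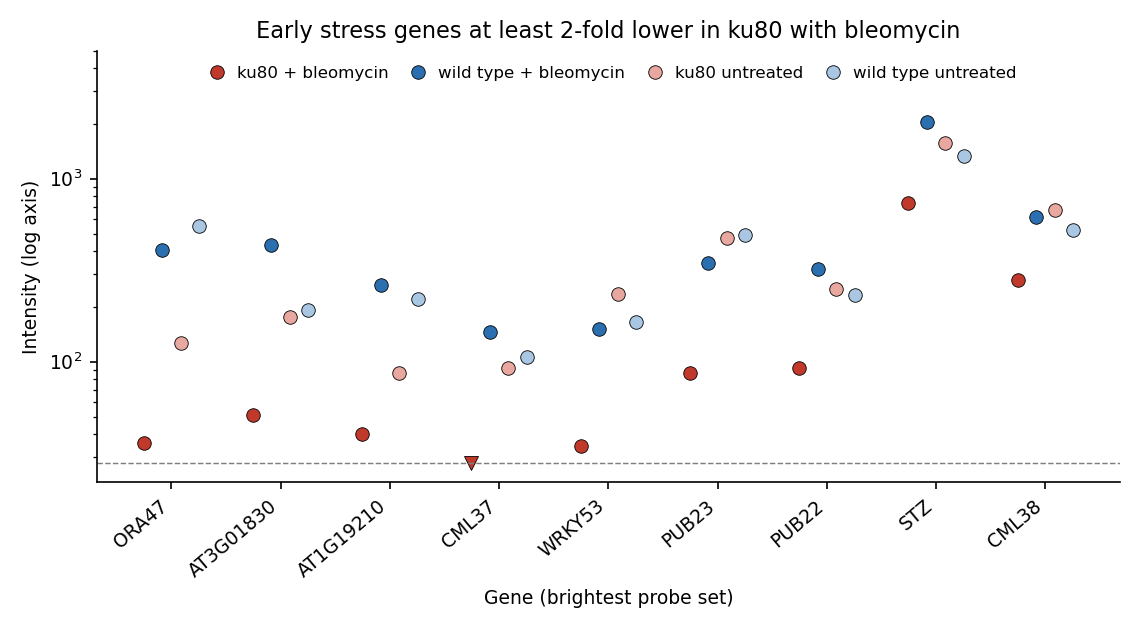
Intensity (log axis) of the 9 early stress genes at least 2-fold lower in ku80 with bleomycin, 1 point per array, with triangles for values at or under the floor of 28 (dashed line). The ku80 array with bleomycin is the lowest of the 4 for all 9 genes.

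Among the other genes far below wild type, most had no symbol in the tables used and are named by locus. Of the 30 largest differences with both arrays above the floor, 25 had no symbol, and their folds ran from 3.23 to 11.4. AT1G58420 measured 71.5 in ku80 and 438 in wild type with bleomycin, and 181 in ku80 and 128 in wild type without it, 6.12-fold lower with the drug. AT4G29780 measured 194 in ku80 and 924 in wild type with bleomycin, and 976 in ku80 and 1144 in wild type without it, 4.76-fold lower with the drug. For AT4G29780 the 3 other arrays lay close together and the ku80 array with bleomycin stood apart, while for AT1G58420 the wild type array with bleomycin was also the highest of the 4. AT5G66650 was 5.17-fold lower, AT1G05575 5.00-fold and AT3G02840 4.68-fold. AT5G52050, which RefSeq also calls DTX50 (a detoxification efflux carrier), was under the floor in ku80 with bleomycin (6.08) and at 146 in wild type with bleomycin, and 104 in ku80 and 103 in wild type without it, at least 5.23-fold lower. In 26 of the 30 the ku80 array with bleomycin was the lowest of the 4, and in 16 the wild type array with bleomycin was the highest. Choosing large lower differences favours both counts. Over all measured named genes the ku80 array with bleomycin was the lowest in 1850 of 7746.

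Further genes without a symbol showed the same arrangement of arrays. AT2G25735 measured 83.2 in ku80 and 374 in wild type with bleomycin, and 270 in ku80 and 203 in wild type without it, 4.49-fold lower with the drug. AT5G19240 measured 66.4 in ku80 and 286 in wild type with bleomycin, and 316 in ku80 and 410 in wild type without it, 4.30-fold lower with the drug. The ku80 array with bleomycin was the lowest of the 4 for both, while the wild type array with bleomycin was the highest for AT2G25735 only. AT2G22880 measured 110 in ku80 and 439 in wild type with bleomycin, and 338 in ku80 and 282 in wild type without it, 3.99-fold lower with the drug. Other named genes had the ku80 array with bleomycin under the floor and the wild type array above it. The 10 largest bounds among them ran from at least 3.08-fold to at least 5.23-fold, and CML37, PUB19 and AT5G52050 are among these 10. AT2G17660, another of the 10, measured 7.05 in ku80 and 110 in wild type with bleomycin, and 53.2 in ku80 and 102 in wild type without it.

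Genes higher in ku80 with bleomycin included a group that acts in lignin synthesis, in which phenylpropanoids are turned into monolignols and polymerised in cell walls. HCT, which makes the shikimate ester on the way to monolignols, measured 697 in ku80 and 273 in wild type with bleomycin, and 523 in ku80 and 633 in wild type without it, 2.56-fold higher with the drug. The wild type array with bleomycin stood alone below the other 3. CCOAMT, named as a caffeoyl-CoA methyltransferase gene, measured 165 in ku80 and 52.8 in wild type with bleomycin, and 275 in ku80 and under the floor (25.7) in wild type without it. It was 3.13-fold higher with the drug, and both ku80 arrays lay above both wild type arrays.

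PRX52, a peroxidase gene linked to lignin polymerisation, measured 101 in ku80 and 36.8 in wild type with bleomycin, and 146 in ku80 and 102 in wild type without it, 2.75-fold higher with the drug. BGLU45 and BGLU46 are neighbouring beta-glucosidase genes whose enzymes can release monolignols from their glucosides. BGLU45 measured 112 in ku80 and 37.6 in wild type with bleomycin, and 33.8 in ku80 and 29.2 in wild type without it, 2.99-fold higher with the drug, and only the ku80 array with bleomycin was far above the floor. BGLU46 measured 208 in ku80 and 72.5 in wild type with bleomycin, and 220 in ku80 and 105 in wild type without it, 2.87-fold higher. Here both ku80 arrays lay above both wild type arrays.

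The lignin list was written after these values were seen, so its counts describe only. It held 31 genes, 11 of them named on the array and 8 measured, and 5 of the 8 were at least 2-fold higher in ku80, against 1.51% of all measured named genes, with a median log2 difference of 1.41. PRX52 was under 2-fold with a floor of 56 (log2 0.85) and with 28 added to every value (0.99). The other 3 were UGT72E2 (0.12), BGLU47 (0.07) and UGT72E1 (-0.46), of which the UGT72E genes encode enzymes that put glucose on monolignols. Of 11 measured BGLU genes, only BGLU45 and BGLU46 were at least 2-fold different.

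JRG21, a jasmonate-regulated gene by its RefSeq name, had the highest lower bound of all named genes. JRG21 measured 243 in ku80 and under the floor (22.6) in wild type with bleomycin, and 135 in ku80 and under the floor (13.8) in wild type without it, at least 8.69-fold higher with the drug. AT5G05600, the other measured gene of the jasmonate list, measured 308 in ku80 and 165 in wild type with bleomycin, a log2 difference of 0.90. AT5G19100 measured 282 in ku80 and 60.3 in wild type with bleomycin, and 59.6 in ku80 and 141 in wild type without it, 4.67-fold higher with the drug, and the ku80 array with bleomycin stood alone above the other 3. AT1G68490 measured 256 in ku80 and 56.5 in wild type with bleomycin, and 232 in ku80 and 329 in wild type without it, 4.53-fold higher, and there the wild type array with bleomycin stood alone below the rest. AT1G74010 measured 349 in ku80 and 90.5 in wild type with bleomycin, and 99.3 in ku80 and 47.1 in wild type without it, 3.86-fold higher. Of the 30 largest differences with both arrays above the floor, folds ran from 2.48 to 4.67. The ku80 array with bleomycin was the highest of the 4 in 20 of these 30, and the wild type array with bleomycin the lowest in 19. Choosing large higher differences favours both counts, and neither was counted over all genes.

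A set of genes was higher in ku80 than in wild type on both pairs of arrays. AT1G30700 measured 312 in ku80 and 87.2 in wild type with bleomycin, and 572 in ku80 and 29.5 in wild type without it, 3.58-fold higher with the drug. AT1G26390 measured 209 in ku80 and 71.6 in wild type with bleomycin, and 442 in ku80 and under the floor (15.4) in wild type without it, 2.92-fold higher with the drug. For both genes the log2 difference was larger without the drug, at 4.28 and at least 3.98, than with it, at 1.84 and 1.55. AT2G15220 measured 414 in ku80 and 113 in wild type with bleomycin, and 410 in ku80 and 62.2 in wild type without it, and its probe set can bind related transcripts. Of the 30 largest higher differences, 7 had a difference of 2-fold or more in the same direction without the drug, 22 differed by less than 2-fold there and 1 was at least 2-fold lower.

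In other genes the untreated genotypes differed by less than 2-fold. AT1G05910 measured 136 in ku80 and 40.4 in wild type with bleomycin, and 82.8 in ku80 and 87.0 in wild type without it, 3.36-fold higher with the drug. AT5G23830 measured 756 in ku80 and 252 in wild type with bleomycin, and 135 in ku80 and 261 in wild type without it, 3.00-fold higher with the drug. AT4G30460 measured 353 in ku80 and 136 in wild type with bleomycin, and 90.3 in ku80 and 80.1 in wild type without it, 2.59-fold higher. The wild type array with bleomycin was the lowest of the 4 for AT1G05910, while for AT4G30460 both arrays with bleomycin lay above both untreated arrays. AT5G35940 measured 107 in ku80 with bleomycin and was under the floor on the other 3 arrays.

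**Figure D3:**
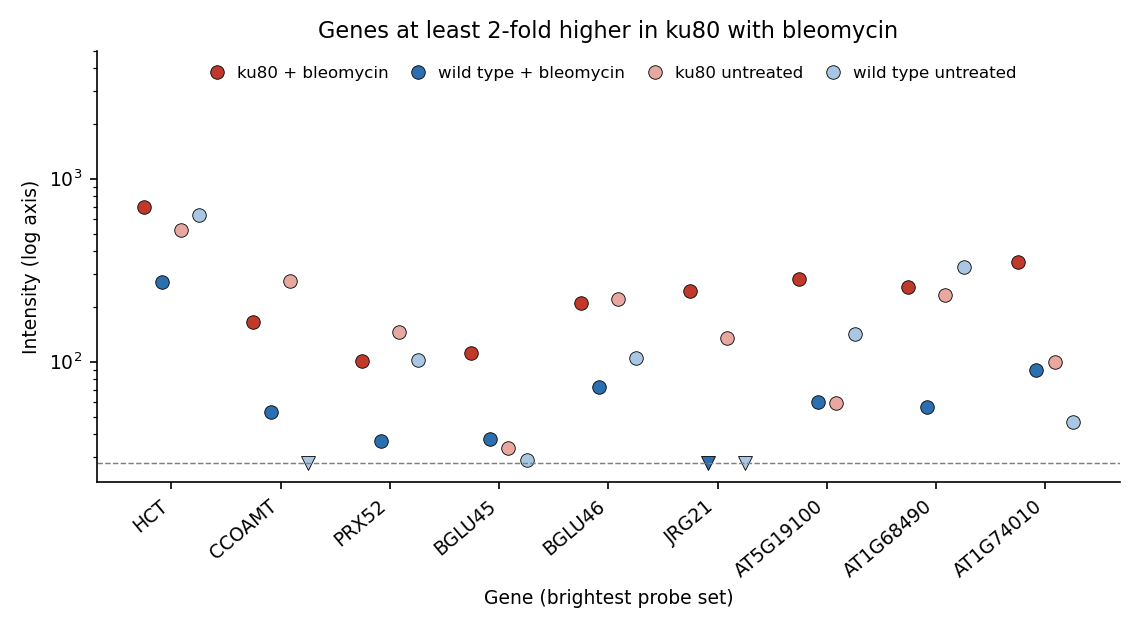
Intensity (log axis) of 9 genes at least 2-fold higher in ku80 with bleomycin, 1 point per array, with triangles for values at or under the floor of 28 (dashed line). In HCT, PRX52 and AT1G68490 the wild type array with bleomycin lies below the other 3, while in BGLU45, AT5G19100 and AT1G74010 the ku80 array with bleomycin lies above them.

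The untreated arrays entered the scaling factors but not the choice of the 2-fold probe sets, and the 2 arrays with bleomycin were set beside them. A gap between those 2 arrays makes it likely that either lies outside the untreated pair. The shares below are thus partly built in and describe only. Of the 361 probe sets lower in ku80, the ku80 array lay below both untreated arrays in 295 (81.7%), and the wild type array lay above both in 194 (53.7%). Of the 283 higher in ku80, the ku80 array lay above both untreated arrays in 178 (62.9%), and the wild type array lay below both in 205 (72.4%). The genotypes differed by less than 2-fold without bleomycin in 298 of the 361 and in 241 of the 283. They differed by at least 2-fold the same way without the drug in 36 of the 361 and 34 of the 283, and the opposite way in 27 and 8.

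Gene length moved with the difference. Lengths are spans in RefSeq (assembly TAIR10.1), introns included, and all 117 higher and 182 of the 183 lower named genes had one. Genes at least 2-fold lower in ku80 had a median length of 1327 bases and those at least 2-fold higher 2918 bases, against 2273 bases for the rest. At least 2-fold lower were 8.03% of the shortest 10th of genes (up to 1123 bases) and 0% of the longest 10th (from 4309 bases). At least 2-fold higher were 1.17% of the shortest 10th and 3.89% of the longest 10th.

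Over the 6242 genes that exceeded the floor on every array, the median log2 difference was -0.31 in the shortest 10th and 0.31 in the longest 10th, and it was higher in each class than in the next shorter one. Without bleomycin the genotypes' medians lay between -0.03 and 0.03 in every length class. Comparisons that share an array with the one reported here are given only side by side: bleomycin over untreated had medians of -0.18 in the shortest 10th and between -0.01 and 0.06 in the others in ku80, and of 0.17 in the shortest and -0.26 in the longest 10th in wild type. The part of gene length in the 2-fold counts was not tested.

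The 15 longest measured genes, chosen by length alone, spanned 13617 to 26499 bases. All 15 had a log2 difference above 0, with a median of 0.42. The wild type array with bleomycin was the lowest of the 4 in 13, which was not counted over all genes. For AT5G24740, SWEETIE, SPI and AT3G50380, which are among these 13, the wild type array with bleomycin was under the floor. AT4G17140 measured 121 in ku80 and 75.1 in wild type with bleomycin, and 143 in ku80 and 150 in wild type without it. ILA, at 96.8 in ku80 and 74.1 in wild type with bleomycin, and 143 in ku80 and 154 in wild type without it, was lower on both arrays with the drug.

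**Figure D4:**
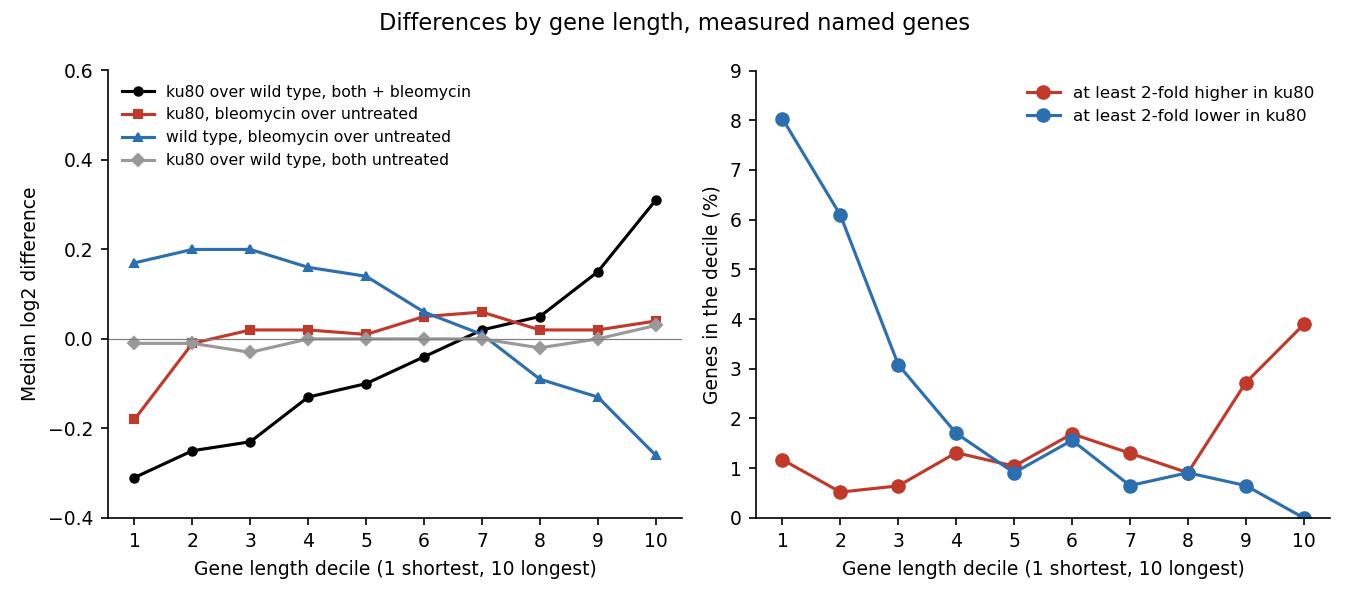
Left, median log2 difference in each length class of named genes that exceeded the floor on every array, for 4 comparisons of which some share arrays. Right, percent of measured named genes in each class at least 2-fold higher or lower in ku80 with bleomycin, from 8.03% lower in the shortest class to 0% in the longest.

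An alternative added after the values were seen subtracted the median over all measured genes of a gene's length class. With it, 129 named genes were at least 2-fold higher in ku80 and 135 at least 2-fold lower. Of 91 genes named by the rule with a length, 8 were then under 2-fold. The early stress genes are short, with a median length of 1381 bases, and their median difference was then -1.46, with 8 of the 14 at least 2-fold lower. The lignin genes had a median length of 2002 bases, and 5 of the 8 were at least 2-fold higher after the subtraction. Scanner values in the labels differed among all 4 arrays. The background standard deviation was 6.24 in ku80 and 13.64 in wild type with bleomycin, and 1.69 in ku80 and 7.06 in wild type without it. Outlier cells numbered 423 in ku80 and 1239 in wild type with bleomycin, and 800 in ku80 and 864 in wild type without it. The part of these values in the differences was not tested. The 3' to 5' ratio of the GAPDH control was 1.19 in ku80 and 1.13 in wild type with bleomycin, and that of actin 1.29 in ku80 and 1.24 in wild type. That of ubiquitin was 1.53 in ku80 and 1.21 in wild type with bleomycin, and 1.42 in ku80 and 1.17 in wild type without it.

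Some 2-fold genes were neighbours on a chromosome. Of 6773 pairs of measured genes with at most 2 protein-coding genes between them, 18 pairs were at least 2-fold different in the same direction and 4 in opposite directions. The 12 pairs lower in ku80 held 21 genes and the 6 pairs higher held 9. AT4G27652, AT4G27654 and AT4G27657 lie in a row and had log2 differences of -1.28, -2.31 and -2.03. AT4G39670 and its neighbour AT4G39675 were at -1.80 and -1.90. AT5G23830 and AT5G23840 were at 1.59 and 1.32, and AT5G19100 and AT5G19110 at 2.22 and 1.48. Where neighbours are close copies, probes may bind both transcripts, which was not tested.

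Lists tied to the study's subject showed small differences or few measured genes. ATLIG4, which encodes the ligase of end joining, measured 54.7 in ku80 and 47.2 in wild type with bleomycin (log2 0.21, but -0.08 with the length class median subtracted) and was the 1 measured gene of its list. ATMND1, a gene of meiotic recombination, was the 1 measured gene of the DNA damage list, at 64.5 in ku80 and 46.3 in wild type with bleomycin (0.48), and under the floor on both untreated arrays. The 4 measured cell cycle genes had a median of 0.04, with SIM at 0.46 and AUR1 at -0.40. Of 9 measured hypoxia genes 1 was at least 2-fold higher in ku80 (AT2G41730, log2 1.07) and 1 at least 2-fold lower (AT1G19530, -1.29). Over all measured named genes those shares were 1.51% and 2.36%. The hypoxia median was -0.30. The 4 measured photosynthesis genes lay between -0.75 (PRK) and -0.16 (SBPASE, but 0.01 with quantile normalization). For all 4 the ku80 array with bleomycin was the lowest, as it was for 1850 of the 7746 measured named genes. That list's median of -0.34 was -0.12 after a loess correction for brightness, and the brightest 10th of probe sets had a median of -0.20. LTI30, a dehydrin gene of the abscisic acid and cold list, measured 44.8 in ku80 and 89.6 in wild type with bleomycin, 2.00-fold lower, and COR47 of the same list was at -0.59. SAG101, from the salicylic acid list, measured 137 in ku80 and 262 in wild type with bleomycin (-0.94). The lists held 433 genes, 70 with a named probe set and 60 measured, and 3 of the 23 lists had no measured gene.

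**Figure D5:**
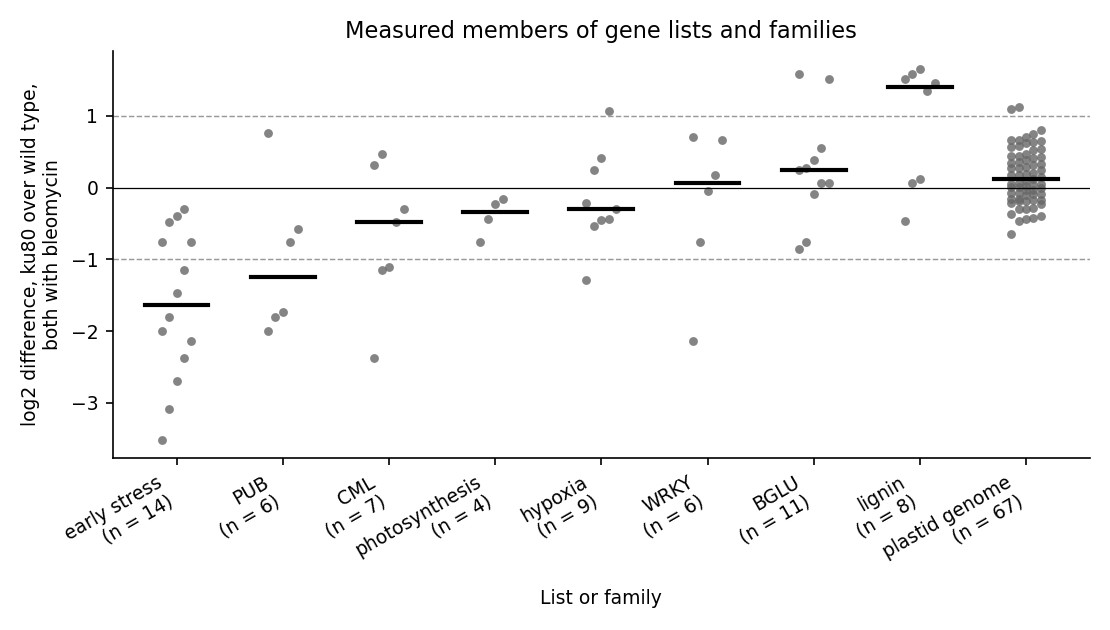
Log2 difference of ku80 over wild type, both with bleomycin, for each measured member of 9 lists and families, with the median as a bar and dashed lines at 2-fold. All 14 early stress genes lie below 0, and 5 of the 8 lignin genes lie above the upper line.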

How the data were processed

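The deposited values were linear microarray intensities, 1 per probe set and array; the authors' software, background correction and version are not given in the sources used here. The mean after trimming 2% at each end was 100.01 on every array, so the values had already been scaled. Control probe sets (64 of 22810) were left out. Intensities were divided by a per-array factor (the median ratio to the 4-array geometric mean over the brighter 50% of probe sets), floored at 28 and log2 transformed, with pandas 2.3.3 in Python 3.11.15. Of 22746 probe sets 13513 were paired with 1 gene, 503 with several and 8730 with none in the platform table, and 13436 of the 13513 matched RefSeq. The brightest probe set stood for each gene.

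Genes named were the 30 largest differences per direction with both arrays above the floor, the 10 largest bounds per direction, and members of lists and families that were at least 2-fold different or that are described with their list. Not every such gene is printed. Members and lists were chosen with earlier results of these data known, and families and the lignin list after the values were seen. Families were gathered by gene symbol, so members named only by locus were not counted. Medians given by length class use genes above the floor on all 4 arrays, since values tied at the floor give a difference of exactly 0. Of the named genes, 531 were at the floor on both untreated arrays. The length adjustment instead subtracted class medians over all measured genes with a length, which were -0.25 in the shortest and 0.29 in the longest 10th. Alternatives were the deposited scaling, quantile normalization (limma 3.58.1), loess, other floors and thresholds, probe set means and a length adjustment. The counting was tested on simulated data.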

Additional observations from a re-analysis of the deposited data

Results flagged for a closer look

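Of the 92 named genes at least 2-fold different with bleomycin, 9 differed by at least 2-fold in the opposite direction between the untreated genotypes, and these opposite differences were not tested. Over all measured named genes, 3 of the 117 higher and 21 of the 183 lower did so. The value given for each of the 9 is the log2 difference with bleomycin minus that without. AT4G39675 had -5.04 or lower, with log2 differences of -1.90 with and at least 3.14 without the drug, since untreated wild type was under the floor (14.6). PDF1.2, a plant defensin gene, had -4.51 (-1.13 with and 3.38 without), and it measured 64.7 in ku80 and 142 in wild type with bleomycin, and 755 in ku80 and 72.6 in wild type without it. PDF1.2b, the other measured gene of its list, was at -0.12 with and 2.77 without the drug. AT1G19530 had -4.07, AT4G39670 -3.50, AT5G05300 -3.09, AT5G55450 -3.05 and ZCF37 -3.02. AT1G19960 had -3.49 or lower, with untreated wild type under the floor (23.8). AT5G19100 was the 1 gene with the opposite sign, at 3.47 (2.22 with and -1.24 without).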

How the results depend on the processing

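None of the 92 genes named for a difference of at least 2-fold changed direction under the alternatives run: of 735 values, 674 stayed at least 2-fold and 61 were under 2-fold. Direction could hardly change by construction. Other floors and 28 added to every value keep the order of the 2 arrays. The length class medians subtracted lay between -0.25 and 0.29, too small to reverse a 2-fold difference. Among smaller differences given here, ATLIG4 (-0.08), EXPA7 (0.03) and PDF1.2b (0.13) turned after the length adjustment. SBPASE (0.01 with quantile normalization) and PYK10 (0.05 with loess) also turned. The length adjustment took 8 of 91 genes under 2-fold (AT1G15290, AT5G22860, CML38, CML42, LTI30, NDB2, PDF1.2 and TBL36). A floor of 56 took 29 of the 92 named genes under 2-fold and adding 28 to every value 22. The early stress median lay between -1.64 and -1.40 over 8 alternatives and the lignin median between 0.93 and 1.49. The PUB median lay between -1.28 and -0.74. The numbers of higher and lower probe sets were 460 and 512 with a floor of 14, 158 and 263 with a floor of 56 and 105 and 216 with 28 added to every value. They were 1403 and 1411 at 1.5-fold and 31 and 94 at 3-fold. Higher probe sets were 57.3% of the 2-fold ones without scaling factors, 37.5% with a floor of 56, 32.7% with 28 added, 49.9% at 1.5-fold and 24.8% at 3-fold. Fewer or more probe sets pass by construction of these floors and thresholds. No paired analysis was possible because each group holds 1 array. Signal near the floor limits the folds of dim genes, and 1 array per group leaves the spread between pools unmeasured.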

Other observations

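Of 67 measured plastid genes 42 had a log2 difference above 0 and 25 below 0, from -0.64 to 1.12, with a median of 0.12. At least 2-fold higher in ku80 with bleomycin were 2 of the 67, against 1.51% of all measured named genes, and none was at least 2-fold lower. rpoC1, which encodes a subunit of the plastid RNA polymerase, measured 391 in ku80 and 180 in wild type with bleomycin, and 798 in ku80 and 547 in wild type without it.

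Other families were counted in the same way. Of 24 measured UDP-glycosyltransferase genes 1 (UGT73C7) was at least 2-fold higher, and of 13 trichome birefringence-like genes 1 (TBL36) at least 2-fold lower. None of 13 expansin, 10 SWEET, 9 tau class glutathione transferase, 8 CYP71B, 7 tubulin and 6 XTH genes was at least 2-fold different. NDB2, which encodes a mitochondrial NAD(P)H dehydrogenase, measured 216 in ku80 and 104 in wild type with bleomycin (log2 1.05). The 9 bacterial and phage spike-in probe sets, after scaling, had ratios of ku80 over wild type with bleomycin of 0.674 to 0.867, with a median of 0.747. The 2 measured genes of the reference gene list were both higher in ku80 with bleomycin, AT4G34270 at log2 0.72 and AT2G28390 at 0.32. The part of these departures from equality in the counts of higher and lower probe sets was not tested.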
